A study of Mus musculus with 9 samples.

Results

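The aryl hydrocarbon receptor battery was followed as 8 genes, Ahr, Arnt, Ahrr, Tiparp, Cyp1a1, Cyp1a2, Cyp1b1, and Aldh3a1, which were taken by symbol and were all found among the 50686 genes of the count table. RNA-Seq was performed on 3 groups of 3 libraries. Control MC3T3-E1 cells, a mouse osteoblast line, were compared with MC3T3-E1 cells given 10 μM SB216763, a compound that blocks GSK3 kinases, for 14 days, and with mouse pulmonary ECs without treatment. The time in culture of the control osteoblasts, the vehicle they received, and the age and strain of the mice are not given in the sources used here, and the osteoblast groups come from a single line. The comparison of treated and control osteoblasts asks whether transcripts of the receptor, its partners, and its best-known targets differed under the inhibitor, and the ECs give the level of the same genes in another cell type.

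The aryl hydrocarbon receptor (AhR) is a ligand-activated transcription factor of the bHLH-PAS family. Without ligand it is held in the cytoplasm by HSP90 and its cochaperones. With ligand, such as planar aromatic pollutants or tryptophan metabolites, it enters the nucleus, pairs with ARNT, and binds DNA at sites with the core GCGTG. The battery includes the CYP1 monooxygenases and ALDH3A1, which oxidize xenobiotics and aldehydes, and the feedback regulators AHRR, which competes with the receptor for ARNT, and TIPARP, which ADP-ribosylates the receptor.

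The sequences just upstream of the start sites show where this core occurs next to the members. Windows from RefSeq on GRCm38.p6 matched 6 of the 8 members, and Ahr and Aldh3a1 were not among them. The letters GCGTG, or CACGC for the opposite strand, were searched in the bases upstream of the start, 250 at most, and 28.2% of 32851 such windows held a match. Ahrr had 3 matches, beginning 107, 82, and 27 bases before the start, and Arnt, Cyp1a1, Cyp1b1, and Tiparp had 1 each. Bases next to the start that GENCODE places in an exon of the same gene were left out for members. This left 202 bases for Cyp1a2, 213 for Tiparp, and 248 for Arnt, whereas the shares of all windows are for the full 250 bases. The 202 bases of Cyp1a2 had 0 matches, which says only that these letters are not in that shorter window. The longer letters TNGCGTG, which contain the core, were found in 4.1% of the windows and, among the members, in Ahrr, where TCGCGTG overlaps the match nearest to the start. A match is a description of the sequence and not a bound site. The windows of the repressor and of 3 targets are printed here 5′ to 3′ on the strand of the gene, with the core matches in capitals. These 4 genes were taken because they differed between treated and control osteoblasts.
Ahrr (chr13:74292332-74292581, minus strand): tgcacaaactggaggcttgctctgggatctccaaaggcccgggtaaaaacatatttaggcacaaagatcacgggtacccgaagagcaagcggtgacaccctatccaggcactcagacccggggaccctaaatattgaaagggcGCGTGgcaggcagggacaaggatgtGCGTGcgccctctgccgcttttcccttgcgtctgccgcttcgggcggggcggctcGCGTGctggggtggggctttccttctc
Cyp1a1 (chr9:57697363-57697612, plus strand): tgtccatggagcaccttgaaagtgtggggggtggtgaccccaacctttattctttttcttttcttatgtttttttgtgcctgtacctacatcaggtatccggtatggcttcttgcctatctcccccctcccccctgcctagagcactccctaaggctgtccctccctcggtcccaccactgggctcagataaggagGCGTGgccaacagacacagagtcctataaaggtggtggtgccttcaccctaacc
Cyp1b1 (chr17:79715062-79715311, minus strand): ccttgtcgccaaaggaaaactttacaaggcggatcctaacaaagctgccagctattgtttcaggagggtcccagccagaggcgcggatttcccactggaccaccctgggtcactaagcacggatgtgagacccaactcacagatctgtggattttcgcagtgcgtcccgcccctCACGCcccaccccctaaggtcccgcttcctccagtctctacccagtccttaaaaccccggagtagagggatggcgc
Tiparp (chr3:65528197-65528409, plus strand): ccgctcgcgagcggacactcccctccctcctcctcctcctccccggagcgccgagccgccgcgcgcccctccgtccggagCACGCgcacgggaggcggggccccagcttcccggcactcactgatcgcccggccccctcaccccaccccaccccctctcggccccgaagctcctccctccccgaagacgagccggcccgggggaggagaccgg

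In the treated osteoblasts, the battery did not move in one direction. Transcripts of Aldh3a1 rose 10.9-fold, those of Tiparp 3.46-fold, and those of Cyp1b1 1.33-fold, and Cyp1a1 had 0 counts in the controls and 42 over the treated group. Transcripts of the receptor itself fell 1.5-fold and those of its repressor Ahrr fell 3.54-fold, whereas Arnt did not pass the test. Cyp1a2 had too few counts for a test. A gene was called at a Benjamini-Hochberg adjusted p under 0.01 in the quasi-likelihood test of edgeR, fitted to all 9 libraries and 15531 genes. By this rule 32.9% of the genes tested were higher and 32% were lower in treated than in control osteoblasts, so that most genes were called. Cyp1a1 passed the filter on low counts only through the treated and EC groups, where it is high, and is left out of the counts that follow. Of the 6 other members tested, 3 were higher and 2 were lower. At a change of at least 4-fold, which 3.81% of genes passed upward and 5.84% downward, 1 of these 6 was higher, Aldh3a1, and 0 were lower. The count of 0 lower rested on 1 library, since without SB216763 replicate 2 Ahrr had a log2 fold change of -2.02, past the 4-fold limit. The median log2 fold change of the 6 members was 0.22, against 0.01 for all genes tested, whose quartiles were -0.56 and 0.55.

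**Figure D1:**
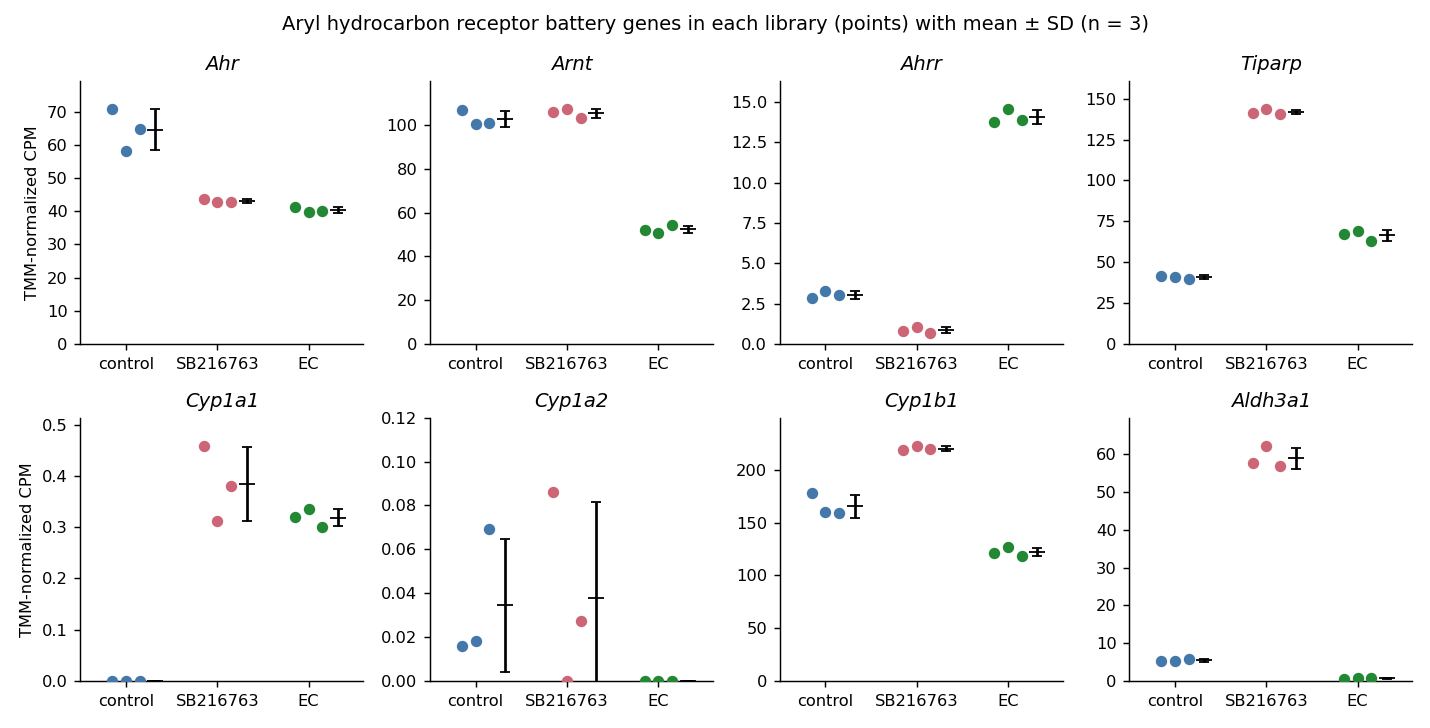
Levels of the 8 members in CPM, which are counts scaled by the library total after TMM adjustment, with 1 panel per gene and its own axis from 0, 1 point per library, and the mean ± SD of each group (n = 3) as a black bar. Aldh3a1 and Tiparp were higher in every treated library than in the other groups, Ahrr was highest in the ECs, and Cyp1a1 was at 0 in the 3 control libraries.

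Ahr encodes the receptor and lies at chr12:35497974-35535038 on the minus strand (GRCm38, GENCODE M21). Its level was 70.7, 58.2, and 64.8 CPM in the control libraries, 43.7, 42.6, and 42.8 CPM in the treated libraries, and 41.3, 39.7, and 39.98 CPM in the ECs. Every treated and every EC library was below every control library. The mean fell from 64.5 ± 6.26 CPM (SD, n = 3) to 43.0 ± 0.593 CPM, a log2 fold change of -0.58 ± 0.06 (SE; edgeR adjusted p = 2.23e-07). Treated osteoblasts and ECs did not differ by the test, with a log2 fold change of -0.09 in ECs (95% interval -0.22 to 0.04, edgeR adjusted p = 0.165), although the 3 EC libraries were the lower ones. A noncoding gene on the opposite strand, Gm48236, overlaps 127 bases of the Ahr exons, and the strand setting of the counting is not given in the sources used here.

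Arnt, the partner that the receptor needs to bind DNA, lies at chr3:95434388-95497240 on the plus strand. Its level was 107, 100.5, and 101 CPM in control and 106, 107, and 103 CPM in treated osteoblasts, and these groups overlapped. The log2 fold change was 0.03 with a 95% interval of -0.06 to 0.13 (edgeR adjusted p = 0.491). With scaling to library size only, which moved the median of all genes to 0.22, it was 0.24 and passed the test. The ECs had 52.1, 50.9, and 54.1 CPM of Arnt, below every osteoblast library (log2 fold change against control -0.97 ± 0.05, edgeR adjusted p = 7.36e-12).

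Ahrr, the receptor's repressor, at chr13:74211118-74292331 on the minus strand, had the widest spread between groups among the regulators. Its counts were 181, 182, and 87 in control, 29, 41, and 25 in treated, and 602, 478, and 599 in EC libraries. The corresponding levels were 2.85, 3.31, and 3.02 CPM in control, 0.831, 1.07, and 0.680 CPM in treated, and 13.8, 14.5, and 13.9 CPM in EC libraries, with no overlap between any groups. Treatment was accompanied by a log2 fold change of -1.82 ± 0.15 (edgeR adjusted p = 1.30e-08). The ECs exceeded control osteoblasts by 4.59-fold and treated osteoblasts by 16.2-fold (edgeR adjusted p = 1.86e-12 and 2.06e-14).

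Tiparp, which encodes the feedback regulator TIPARP, lies at chr3:65528410-65555518 on the plus strand. It measured 41.8, 41.3, and 39.8 CPM in control, 141, 143, and 141 CPM in treated, and 67.2, 69.4, and 62.8 CPM in EC libraries. The groups did not overlap, and the order from control to ECs to treated osteoblasts held in every library. The log2 fold change under treatment was 1.79 ± 0.05 (edgeR adjusted p = 1.14e-14), and 853 of the 15531 genes tested had a higher one. Tiparp overlaps 223 exon bases of 4931440P22Rik on the opposite strand, but this gene had between 21 and 72 counts per library against 1145 to 5507 for Tiparp.

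Because counts of 2 genes in 1 library share its depth, ratios within a library show the balance of receptor and regulators without scaling. For every Ahrr count there were 17.6 to 24.8 Ahr counts in control libraries, 39.9 to 62.9 in treated libraries, and 2.73 to 3 in ECs. For every Ahr count there were 0.591 to 0.711 Tiparp counts in control, 3.23 to 3.37 in treated, and 1.57 to 1.75 in EC libraries. Arnt counts per Ahr count ran from 1.51 to 1.73 in control, from 2.4 to 2.51 in treated, and from 1.26 to 1.35 in EC libraries. None of these 3 ratios overlapped between groups, and they are given as a description without a test. How often the ratios of other gene pairs overlap was not counted, and most genes tested were called between the groups.

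Cyp1a1 and Cyp1a2 are divergent neighbors on chromosome 9, at chr9:57687928-57703824 on the plus strand and chr9:57676937-57683703 on the minus strand, with 4224 bases between the GENCODE gene models. The RefSeq start of Cyp1a1, from which the printed window was taken, lies inside its GENCODE model, so this gap is not measured from that start. Cyp1a1, the most widely used transcript readout of the receptor, had 0 counts in each of the 3 control libraries. It had 16, 12, and 14 counts in treated and 14, 11, and 13 in EC libraries. These are small numbers at the depth of the libraries, and the pooled levels were 0.382 CPM in treated osteoblasts (95% exact Poisson interval 0.275 to 0.516) and 0.317 CPM in ECs (0.225 to 0.436), where the intervals cover counting error only. Against the 3 counts taken as the limit for the control group, or 0.0204 CPM, the pooled level was 18.7-fold higher in treated osteoblasts and 15.6-fold higher in ECs. These folds leave out the counting error of the treated and EC counts, so they are no strict lower bounds. The exact Poisson interval of the 0 control counts reached 0.025 CPM, below the intervals of both other groups. Treated osteoblasts and ECs overlapped, with a log2 fold change of -0.26 in ECs (95% interval -0.93 to 0.40, edgeR adjusted p = 0.436).

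Cyp1a2, whose enzyme is abundant in liver, had 1, 1, and 2 counts in control, 3, 0, and 1 in treated, and 0, 0, and 0 in EC libraries. With 4 pooled counts in each osteoblast group, the ratio of treated to control was 1.34 with a counting interval of 0.249 to 7.19, so no difference was detectable at this depth. The 0 counts in ECs allow a level of up to 0.0251 CPM. In the fit without the filter, Cyp1a2 did not pass in any comparison (edgeR adjusted p = 0.929 for treated against control, 0.136 for ECs against control, and 0.0925 for ECs against treated).

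Cyp1b1, the member of the CYP1 family that acts mainly outside the liver, lies at chr17:79701537-79715061 on the minus strand. Unlike the CYP1A genes it was abundant in every library, with 178, 159.8, and 159 CPM in control, 219, 223, and 219.5 CPM in treated, and 121, 127, and 119 CPM in EC libraries. The groups did not overlap. The log2 fold change under treatment was 0.41 ± 0.05 (edgeR adjusted p = 1.83e-06), which lies within the middle range of all genes. In ECs it was -0.44 ± 0.05 against control (edgeR adjusted p = 6.32e-07). For every Ahr count there were 2.46 to 2.75 Cyp1b1 counts in control, 5 to 5.23 in treated, and 2.94 to 3.2 in EC libraries.

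Aldh3a1, which encodes an aldehyde dehydrogenase known from cornea and stomach and from carcinogen-exposed tissues, lies at chr11:61207537-61218421 on the plus strand. It rose from 5.35, 5.19, and 5.87 CPM in control to 57.6, 62.2, and 56.9 CPM in treated libraries, while the ECs had 0.435, 0.730, and 0.810 CPM. The counts behind these levels were 340, 285, and 169 in control, 2009, 2386, and 2092 in treated, and 19, 24, and 35 in EC libraries. The 3 groups were far apart, and the log2 fold change under treatment was 3.44 ± 0.08 (edgeR adjusted p = 1.96e-15), with 187 of 15531 genes above it. The ECs were 8.27-fold below control and 89.9-fold below treated osteoblasts (edgeR adjusted p = 9.99e-12 and 1.68e-17). The treated osteoblasts were thus farther from the ECs in Aldh3a1 than the controls were.

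**Figure D2:**
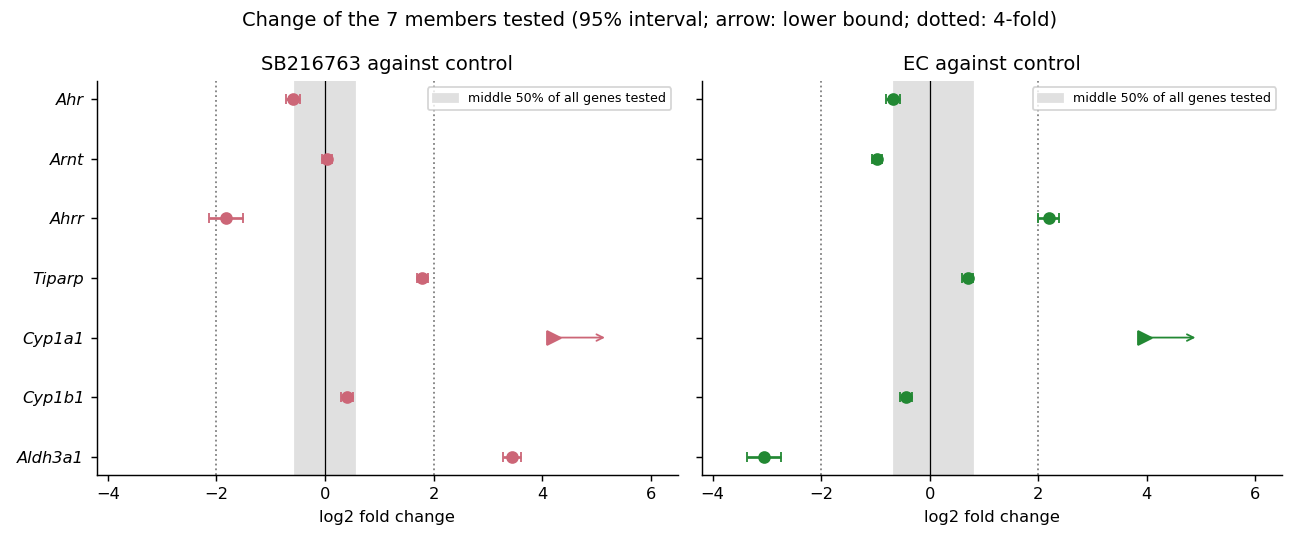
Log2 fold changes of the 7 members tested in treated osteoblasts (left) and in ECs (right), each against control, as points with 95% intervals. The triangle with an arrow is the pooled level of Cyp1a1 over the 3-count limit of the control group. It leaves out the counting error of the treated or EC counts and is no strict lower bound. The gray band is the middle 50% of all genes tested, and dotted lines mark 4-fold. Aldh3a1 and Ahrr lie on opposite sides of 0 in the panels, at 3.44 and -1.82 on the left and -3.05 and 2.20 on the right.

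Across cell types, the ECs were higher than control osteoblasts for Ahrr and Tiparp, and for Cyp1a1 as given by its counts, and lower for Ahr, Arnt, Cyp1b1, and Aldh3a1. Without Cyp1a1, these are 2 higher and 4 lower of 6 members, where 39% of all genes tested were higher and 37.9% were lower. Past 4-fold, 1 of the 6 was higher (13.5% of all genes) and 1 was lower (9.87%). Against treated osteoblasts, ECs were higher for Ahrr and lower for Arnt, Cyp1b1, Tiparp, and Aldh3a1, with backgrounds of 40.3% and 38.3%, and past 4-fold 1 was higher (15% of all genes) and 1 was lower (10.3%). The comparisons of treated osteoblasts and of ECs share the control libraries, and that of ECs with treated osteoblasts shares libraries with both. In bulk RNA, a smaller number of expressing cells and less RNA per cell cannot be told apart.

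Per kilobase of exon, which allows genes to be compared, Cyp1b1 was the most abundant member in all 3 groups, at 28.4 in control, 37.7 in treated, and 20.9 CPM per kb in EC libraries. In control osteoblasts it was followed by Arnt (12.8), Ahr (10.5), and Tiparp (9.4 CPM per kb), of which Ahr and Tiparp overlapped between libraries. In treated osteoblasts Tiparp (32.5) and Aldh3a1 (30.3) stood above Arnt (13.1) and Ahr (6.98 CPM per kb). In ECs, Tiparp (15.2) was followed by Ahr and Arnt, both at 6.54 CPM per kb and overlapping. At the lower end, Aldh3a1 was above Ahrr in control (2.82 and 0.324 CPM per kb) and below it in ECs (0.339 and 1.49), and Cyp1a1 (0.138) and Ahrr (0.091 CPM per kb) overlapped in treated osteoblasts. Among the 94 genes of the table with a symbol of Cyp, number, letters, and number, Cyp1b1 ranked 1st by level per kb in treated osteoblasts. It ranked 2nd to Cyp20a1 in the other groups, and P450 genes with other forms of symbol were not ranked. Among 21 aldehyde dehydrogenase genes, Aldh3a1 ranked 10th in control, 2nd in treated, and 15th in EC libraries.

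**Figure D3:**
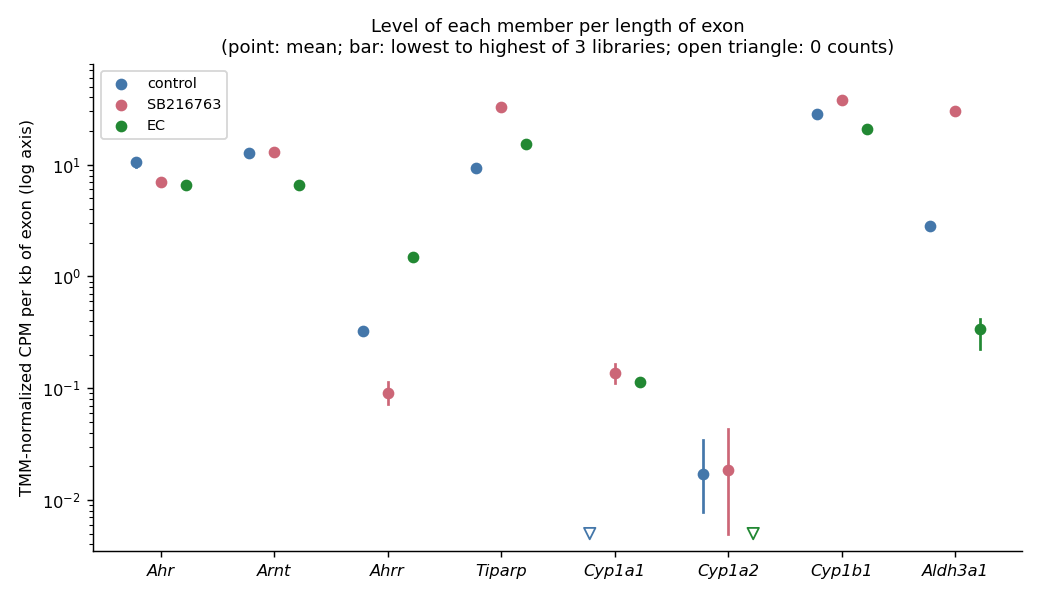
Mean level of each member per kilobase of exon on a log axis, with bars from the lowest to the highest of 3 libraries and open triangles, drawn at the bottom of the axis, for groups with 0 counts. In treated osteoblasts Aldh3a1 and Tiparp reach 30.3 and 32.5 CPM per kb, next to Cyp1b1 at 37.7, while Cyp1a1 stays at 0.138.

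Other genes that have been described as targets of the receptor formed a list of 18, of which 14 were tested. In treated osteoblasts 8 rose and 4 fell, where 32.9% and 32% of all genes did, with a median log2 fold change of 1.42 against 0.01 for all genes. Past 4-fold 6 were higher and 1 was lower, against 3.81% and 5.84% of all genes. Among the called genes were Ugt1a6a, Ugt1a6b, and Selenbp1, higher, and Fgf21 and Il6, lower. Like Cyp1a1, these genes passed the filter on low counts only through groups where they are high. All counts of this list include them and only describe the list. With scaling to library size only, 2 rather than 4 fell. Socs2, a feedback inhibitor of cytokine signaling, rose from 7.7 to 89 CPM (log2 fold change 3.53 ± 0.06), and Hes1, a Notch effector, rose from 6.66 to 68.8 CPM (3.36 ± 0.06, edgeR adjusted p = 5.32e-17 and 1.57e-16). Selenbp1 had 32, 12, and 15 counts in control and 77, 104, and 83 in treated libraries, or 0.414 and 2.39 CPM. Ugt1a6a, a glucuronosyltransferase gene that shares exons with the rest of the Ugt1a family so that its counts are uncertain, had 3 counts in control and 38 in treated libraries, a ratio of 17 with a counting interval of 5.38 to 85.9. In the other direction, the amino acid transporter gene Slc7a5 fell from 605 to 198 CPM (log2 fold change -1.61 ± 0.05, edgeR adjusted p = 7.06e-14). Il6, a cytokine gene, had 16, 10, and 10 counts in control and 1, 2, and 4 in treated libraries, or 0.260 and 0.0632 CPM. Fgf21, a hormone gene, had 66 counts in control and 3 in treated libraries. Nqo1 and Nfe2l2, chosen after their values were seen, rose from 21.05 to 113 CPM and from 128 to 323 CPM (log2 fold change 2.42 and 1.33). NQO1 is a quinone reductase and a classic member of the battery, but it is as well known as a target of NRF2, the factor that Nfe2l2 encodes. Many genes of the list are controlled by other pathways too, and the part of these was not tested.

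Transcripts for proteins that hold or assist the receptor changed by less than 4-fold and in both directions. Of 11 chaperones and coregulators, 4 rose and 4 fell, close to the 32.9% and 32% of all genes, with a median log2 fold change of 0.14. Past 4-fold there were 0 of these 11, where only 3.81% of all genes were higher and 5.84% lower, so 0 is near the background. With scaling to library size only, 7 rose. The HSP90 genes fell, Hsp90ab1 from 2547 to 1855 CPM (log2 fold change -0.46 ± 0.05) and Hsp90aa1 from 459 to 274 CPM (-0.75 ± 0.04, edgeR adjusted p = 7.32e-07 and 3.43e-10). Of 13 further bHLH-PAS genes, 9 were tested, 2 rose, and 5 fell, against the same background. With scaling to library size only 2 fell, and without SB216763 replicate 2 only 1 rose. Arnt2, an alternative partner for the family, fell from 2.54 to 0.680 CPM in treated osteoblasts and was at 40.3 CPM in ECs, and Npas4, a neuronal activity-induced factor, fell from 1.07 to 0.434 CPM (edgeR adjusted p = 3.17e-09 and 0.00124).

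A list of 12 tryptophan enzymes was mostly of the kynurenine route, which yields ligands of the receptor. It also held Il4i1 and Tph1, which lie outside this route, and 3 of the 12 had enough counts for a test. Of these 1 rose and 1 fell, where 32.9% and 32% of all genes did. These counts were not stable, since 2 rose without control replicate 2, SB216763 replicate 3, or EC replicate 3, and 2 fell when any library other than control replicate 1 or 3 was left out. Kyat3, a kynurenine aminotransferase gene, fell from 8.22 to 3.80 CPM (edgeR adjusted p = 1.16e-07). Tdo2, at 0.218, 0.163, and 0.191 CPM in control, treated, and EC libraries, and Ido1, at 0, 0, and 0.122 CPM, were named after their values were seen because they encode the enzymes of the entry step. Of 6 electron transfer partners of P450 enzymes and epoxide hydrolases, which act next to CYP1 enzymes, 4 rose and 2 fell. The background was the same 32.9% and 32% of all genes. Past 4-fold there were 0 of the 6, near the 3.81% of all genes that were higher and the 5.84% that were lower. Ephx1 went from 251 to 625 CPM (edgeR adjusted p = 8.99e-13). Ephx2, at 0.645 CPM in control and 0.208 CPM in treated libraries, passed the filter on low counts only through the control group. Its counts were 36, 37, and 20 in control and 6, 9, and 8 in treated libraries. Of 6 genes for other xenobiotic receptors and their partners, 2 were tested against the same background. Of these 1 rose, or 2 with scaling to library size only. Rxra rose from 184 to 248 CPM (edgeR adjusted p = 1.67e-07), and Rxrb, at 67.5 and 71.5 CPM, did not pass (adjusted p = 0.144).

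The other genes of the P450 and aldehyde dehydrogenase families moved in both directions. Of 91 other P450 genes with a symbol of Cyp, number, letters, and number, 22 were tested. Of these 9 rose and 5 fell, against 32.9% and 32% of all genes, with a median log2 fold change of 0.45. Cyp46a1 (from 0.226 to 1.90 CPM), Cyp27a1 (0.113 to 0.514), Cyp2j9 (1.42 to 4.14), and Cyp4f13 (7.67 to 22.8 CPM) had the largest rises. Cyp26b1, a retinoic acid hydroxylase gene, fell from 74.4 to 3.60 CPM (log2 fold change -4.37 ± 0.11, edgeR adjusted p = 4.15e-15), and Cyp2c23, Cyp26c1, and Cyp20a1 fell by 4.76-fold, 2.65-fold, and 1.79-fold. Of 20 other aldehyde dehydrogenase genes 16 were tested. Of these 3 rose and 7 fell, against 32.9% and 32% of all genes, or 7 and 6 with scaling to library size only. The 3 that rose, Aldh4a1, Aldh2, and Aldh3a2, did so by 1.92-fold, 1.37-fold, and 1.13-fold, against 10.9-fold for Aldh3a1. Aldh1a3, Aldh1a1, Aldh1l2, and Aldh1l1 fell by 13.7-fold, 8.51-fold, 8.29-fold, and 2.99-fold. Like Cyp1a1, some of these family genes passed the filter on low counts only through groups where they are high. They are Cyp46a1, Cyp27a1, Cyp2c23, Cyp26c1, Aldh1a3, Aldh1a1, and Aldh1l1.

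**Figure D4:**
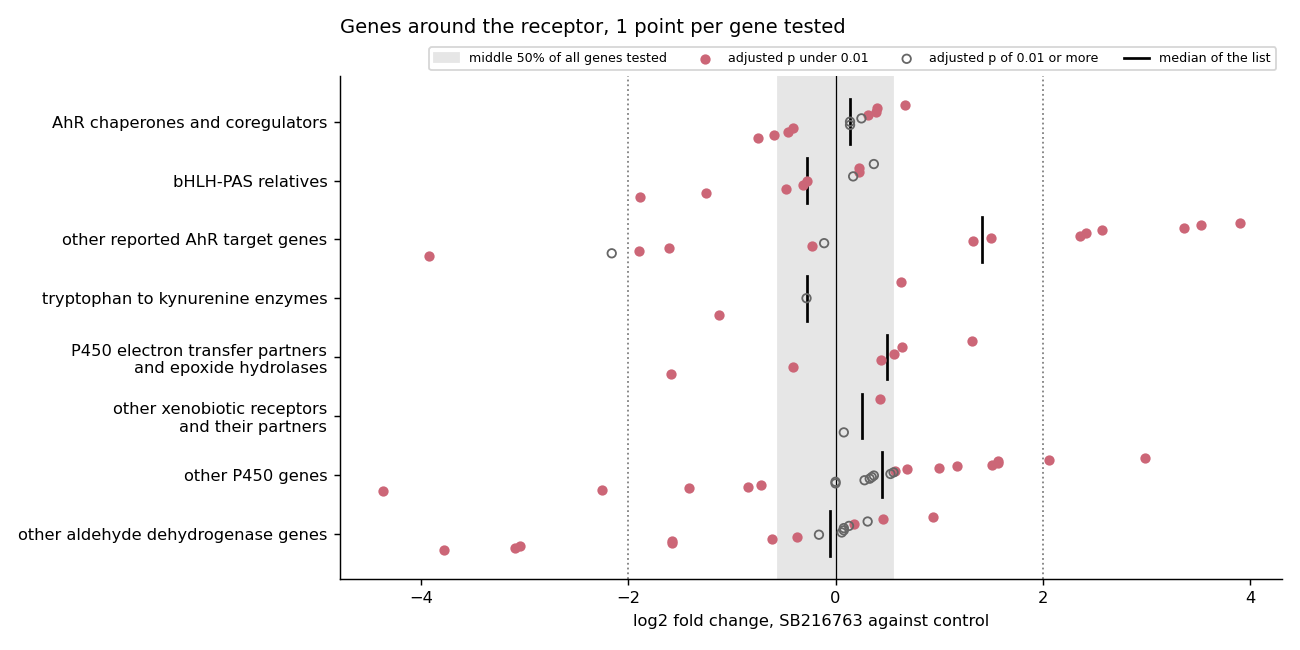
Log2 fold change of each gene tested in the lists around the receptor, treated against control osteoblasts, with filled points for an edgeR adjusted p under 0.01, open points for the others, and a black line at the median of each list. The band is the middle 50% of all genes tested and dotted lines mark 4-fold. The list of other reported targets has its median at 1.42, and the other lists have theirs between -0.28 and 0.50.

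Genes with the closest pattern to each member over the 9 libraries were found by Pearson's correlation of log2 CPM, among genes with a mean of at least 1 CPM. These values describe 3 groups of 3 libraries and are largely set by the group means. Tiparp was closest to Arrdc3 (r = 0.9984), Socs2, and Cbs, and 87 genes exceeded 0.99. Aldh3a1 was closest to Efr3a, Pacs2 (both 0.9982), and Zfp866, and Cyp1a1 to Nr2f2 (0.9960), Cpe, and Gclc. For Ahr the genes with a close pattern included Copa (r = 0.9904) and Fubp3. Ahrr was closest to Abcf2 (0.9990), Rfc2, and Psmd12, Arnt to Zbtb7b (0.9996), Aptx, and Lipo3, and the genes close to Cyp1b1 included Tlk1 (0.9967) and Gcnt1.

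The libraries held between 30990107 and 68946333 counts, and the biological coefficient of variation over all genes was 0.0554. No pair of replicates was identical, and a chi-square statistic per gene between replicates, near 1 for counting error alone, ran from 2.85 to 104, highest between control replicates 1 and 2. Nothing in the sources says that replicates came from separate cultures or animals, so p-values measure the spread between these libraries, which may be technical. The 8 osteoblast markers summed to between 43900 and 59300 CPM in control, 8070 and 8340 CPM in treated, and 45.1 and 64.5 CPM in EC libraries, with 7 of 8 lower in treated than in control osteoblasts. The 8 endothelial markers summed to 6510 to 6710 CPM in ECs, 58.5 to 73.9 CPM in control, and 10.4 to 11.6 CPM in treated osteoblasts, where 1 rose (Vwf), 1 fell (Flt1), and 6 did not pass. The defining markers Pecam1 and Cdh5 were below 1 CPM in every osteoblast library. Of the 7 lung epithelial markers, Epcam was at 0 in every library and Ager was the only marker above 1 CPM in any group mean, and their sum was 0.583 to 0.764 CPM in control, 2.35 to 3.27 CPM in treated, and 1.4 to 2.41 CPM in EC libraries. The 6 leukocyte markers summed to 29.4 to 30.9, 10.6 to 12.7, and 58.1 to 60.3 CPM in the same order of groups. These sums rest mostly on Lyz2 in control (25.1 to 27.3 CPM) and on Cd68 in ECs (45.5 to 47.5 CPM). In EC libraries Ptprc was at most 0.183 CPM and Adgre1 at most 0.0463 CPM. The 5 keratinocyte markers summed to 13.8 to 14.2, 15.2 to 16.6, and 8.08 to 8.49 CPM. These sums are mostly Trp63 in control (12.9 to 13.4 CPM) and treated osteoblasts (15.1 to 16.6 CPM), but Ivl in ECs (8.06 to 8.38 CPM). Under treatment Trp63 rose, whereas Krt14 fell from 0.763 to 0.00869 CPM. The 6 smooth muscle markers summed to 3130 to 3280, 897 to 908, and 22.8 to 24.1 CPM. Of the 5 smooth muscle markers tested, 2 fell in treated osteoblasts (Acta2 from 2914 to 144 CPM and Cspg4) and 2 rose (Pdgfrb from 253 to 746 CPM and Des), so that the lower sum is that of Acta2. The fall of the osteoblast sum came with the changes of the members, and its part in them was not tested. With scaling to library size only, 6722 genes were higher and 3828 lower in treated than in control osteoblasts, in place of 5117 and 4966, but Ahr (-0.38) and Ahrr (-1.62) were still lower and Cyp1b1 (0.61), Tiparp (1.99), and Aldh3a1 (3.65 on the log2 scale) still higher.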

How the data were processed

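RNA-Seq was performed on total RNA of control osteoblasts, SB216763-treated osteoblasts, and pulmonary ECs, 3 libraries each, with libraries from the KAPA DNA HyperPrep Kit. The ECs were isolated by FACS. Alignment and gene counting were done by the authors with STAR (version 2.5.3a on GRCm38, per the submitters' processing notes), who deposited whole, unnormalized counts of 50686 Ensembl genes in a single table. The annotation and strand setting are not given in the sources used here. The treatment text in the labels is the same for every sample, so groups were taken from the titles.

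Symbols matched 50376 identifiers and GENCODE M21 models matched 50462. Genes passing filterByExpr (15531) were tested in R 4.3.3 with edgeR 4.0.16 (TMM, quasi-likelihood test, all 9 libraries, Benjamini-Hochberg adjustment). Calls needed an adjusted p under 0.01 and, for the stricter count, a change of at least 4-fold, as the study's methods set. Fold changes used a prior count of 0.125 and log2 CPM a prior count of 2. The code was tested on simulated data. In each library, 3 counts corresponded to 0.0472 to 0.104 CPM, and floors and intervals cover counting error only.

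The members and lists were chosen with earlier results of these data known, so no p-value was adjusted over a list and no list was tested as a set. All 8 members are named, and from each list the genes with an adjusted p under 0.01 and a log2 fold change of at least 1 in treated against control osteoblasts, at most 4 per direction, or the 2 most abundant where there was none. From the gene families the 4 called genes with the largest change per direction are named, and from the correlations the 3 closest genes per member, of which some are not reported here. Exceptions are marked in the text. The counts of lists and families keep genes that passed the filter only through groups where they are high. Alternatives were DESeq2 1.42.0, limma-voom (limma 3.58.1), other scalings, filters, prior counts, and thresholds, fits of only the 2 groups compared, a replicate block, and leaving out each library.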

Additional observations from a re-analysis of the deposited data

How the results depend on the processing

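There were 21 member results, for 7 members in 3 comparisons. Cyp1a1 is counted here and in the member calls below, although it passed the filter only through groups where it is high. Of 420 values under the alternatives, 419 kept their direction and their side of the adjusted p of 0.01. The exception was Arnt in treated against control osteoblasts, at 0.24 with scaling to library size only (edgeR adjusted p = 7.38e-05), a scaling that moved the median of all genes to 0.22, and to 0.13 and -0.06 for ECs against control and treated osteoblasts. Lowering the fold limit to a log2 fold change of 1 gave 1726 genes higher and 2015 lower in treated against control osteoblasts, in place of 592 and 907, because the limit itself is smaller. It gave 3295 and 2716 in ECs against control (in place of 2102 and 1533), and 3608 and 2978 in ECs against treated osteoblasts (in place of 2329 and 1604). The fitted log2 fold change of Cyp1a1 depended on the prior count, from 3.17 to 7.16 under treatment over the settings, and is no bound. Of 288 counts of called genes in the lists, 270 stayed within 1.5 times and 18 moved, most of them among the 3 kynurenine enzymes tested or with scaling to library size only.

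Leaving out each library changed no member call at the adjusted p. Ahrr under treatment ranged from -2.02 (past 4-fold, without SB216763 replicate 2) to -1.68, Ahr from -0.67 to -0.51, Tiparp from 1.76 to 1.80, and Aldh3a1 from 3.40 to 3.47. Replicate numbers are shared between groups, and deviations of same-numbered libraries correlated between -0.0392 and 0.123. The highest, 0.123 and 0.081, were those of replicates 2 and 3 in treated against control osteoblasts. With 3 libraries per group such correlations cannot tell whether same-numbered libraries were handled together. With the replicate block, 581 genes were higher and 901 lower past 4-fold in treated against control osteoblasts, 2101 and 1533 in ECs against control, and 2331 and 1605 in ECs against treated osteoblasts. At the adjusted p alone they were 5143 and 4988, 6088 and 5910, and 6283 and 5976, and no member call changed. Not every library correlated best with its own number. Depth limits Cyp1a1 and Cyp1a2, whose counts were at most 16 per library.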
